A study of Homo sapiens with 4 samples.

Results

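FOXK2 binding was examined at 6 genes that belong to 1 regulatory circuit: ATXN1, ATXN1L, CIC, ETV1, ETV4 and ETV5. Chromatin immunoprecipitation and sequencing (ChIP-seq) with an antibody to the forkhead transcription factor FOXK2 had been done in OVCAR5, an established ovarian cancer cell line that the labels class as high grade serous, grown in plain medium with serum. There were 2 biological replicates, and the 2 matching input libraries were not analysed here. The genes were chosen by name: every peak that the deposited annotation gives to one of these 6 genes as the nearest transcription start site (TSS) was taken, at any distance. They held 15 of the 12471 peaks of replicate 1 and 25 of the 27281 peaks of replicate 2. The peak lists are of a single condition, so no test between groups was run, and the only error available is the difference between both replicates of 1 cell line. The peak score is the caller's own measure of tag density. Its scale differs between libraries, so a peak is described by its rank (1 is the strongest in its list) and by its percentile (the share of peaks in the list with a lower score).

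Capicua (CIC) is a DNA-binding repressor that works together with ataxin-1 (ATXN1) and its paralog ataxin-1-like (ATXN1L), which bind CIC and stabilise it. CIC recognises the octamers TGAATGAA and TGAATGGA, and the PEA3 family of ETS activators, ETV1, ETV4 and ETV5, are its best known target genes. Signaling through RAS and ERK releases this repression and also activates the PEA3 proteins, which are growth and invasion factors in several cancers. FOXK2 itself recognises the forkhead heptamer TGTTTAC.

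The FOXK2 peaks that carry the results are printed first, as hg38 sequence of the + strand from peak start through peak end in replicate 1. The ETV5 promoter peak is shown because it was among the strongest of all peaks, and capitals mark the heptamer TGTTTAC and each CCAAT box, which reads ATTGG where it lies on the other strand. It lies at chr3:186109167-186109377, which GENCODE places inside the spans of ETV5 and of its neighbor DGKG and outside the exons of both.
ETV5 promoter: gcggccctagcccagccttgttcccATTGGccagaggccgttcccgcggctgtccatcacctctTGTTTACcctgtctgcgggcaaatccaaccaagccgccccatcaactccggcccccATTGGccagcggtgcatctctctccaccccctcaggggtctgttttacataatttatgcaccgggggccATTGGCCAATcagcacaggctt

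The next 3 are shown because each holds the CIC octamer TGAATGGA (TCCATTCA on the other strand), which is in capitals. Where present, TGTTTA, the beginning of the forkhead heptamer, is in capitals as well. They lie in intron 5 of ETV5 at chr3:186097849-186098059, in intron 8 of ETV1 at chr7:13920127-13920337, and at the ETV1 promoter. Of the promoter peak, chr7:13991371-13991581, the part outside exons is printed, chr7:13991426-13991581.
ETV5 intron 5: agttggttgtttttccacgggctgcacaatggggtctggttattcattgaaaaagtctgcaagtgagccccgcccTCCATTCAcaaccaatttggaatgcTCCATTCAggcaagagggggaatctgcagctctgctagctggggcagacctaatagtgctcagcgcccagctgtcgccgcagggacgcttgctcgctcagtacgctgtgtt
ETV1 intron 8: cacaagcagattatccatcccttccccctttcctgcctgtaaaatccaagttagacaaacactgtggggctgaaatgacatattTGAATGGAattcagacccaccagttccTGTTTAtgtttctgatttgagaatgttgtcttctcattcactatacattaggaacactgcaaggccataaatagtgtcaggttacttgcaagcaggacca
ETV1 promoter: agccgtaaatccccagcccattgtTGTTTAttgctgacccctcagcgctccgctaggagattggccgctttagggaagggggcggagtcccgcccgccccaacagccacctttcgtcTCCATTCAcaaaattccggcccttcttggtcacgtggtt

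FOXK2 peaks were found at all 6 genes in both replicates, and at 5 of them, all but ETV4, at least 1 peak was shared, that is, the positions in both lists had 1 bp or more in common. In the higher-scoring part of each list this left 4 genes with a peak in both replicates, without ATXN1L and ETV4, and within 10000 bp of the TSS it left 4, without ATXN1 and ETV4. For comparison, 28.6% of all 20056 protein-coding genes had a peak in both lists at any distance and 25.5% had an overlapping one. Within 10000 bp of the TSS, 16.9% of them had a peak in both lists. The share of all genes in the higher-scoring part was not computed. These 6 genes were named with earlier results of these data known, so the counts are a description of them. Shared peaks numbered 11 of the 15 in replicate 1, against 74.9% of the whole list, and 11 of the 25 in replicate 2, against 34.2% of the whole list. The shared peaks of the 6 genes were mostly their stronger ones, with a median percentile of 79.9 in replicate 1 and 93.0 in replicate 2, while the peaks found in 1 list only had medians of 19.3 and 16.1. The focus ratio, the fraction of tags on the expected side of the peak centre, had a median of 0.724 and 0.744 over the peaks of the 6 genes, beside 0.758 and 0.755 over the lists. Promoters held 5 of the 15 peaks in replicate 1 (21.7% in the whole list) and 4 of the 25 in replicate 2 (18.0%). The order of the genes by their strongest peak was the same in both lists: ETV5, ETV1, CIC, ATXN1, ATXN1L and ETV4.

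**Figure D1:**
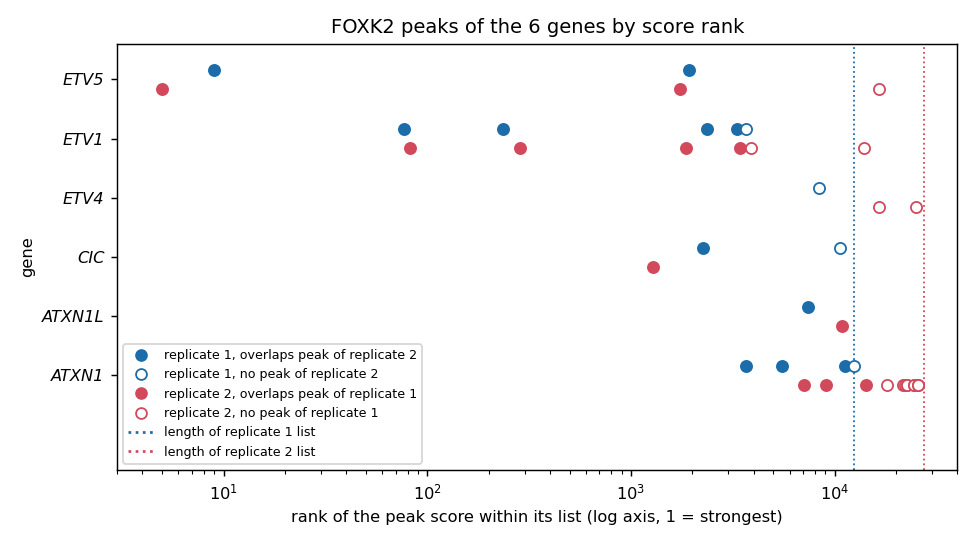
Rank of each FOXK2 peak of the 6 genes within its own list, on a log axis where 1 is the strongest peak. Blue points are replicate 1 and red points replicate 2, filled points overlap a peak of the other replicate, open points do not, and dotted lines mark the length of each list. ETV5 and ETV1 reach ranks of 9 and 77 in replicate 1 and 5 and 82 in replicate 2, whereas no ETV4 peak is filled.

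ETV5, a PEA3 activator, carried the strongest FOXK2 peak of the circuit. Its promoter peak had a score of 57.7 and rank 9 of 12471 in replicate 1, 160 bp before the TSS, and a score of 137.3 and rank 5 of 27281 in replicate 2, 142 bp before the TSS. Only 8 peaks scored higher in the former list and 4 in the latter, so both replicates placed this site at the very top. The centres lay 18 bp apart, and the whole replicate 1 peak was inside the replicate 2 peak. Scores under 10 lay within 0.00496 of whole multiples of a smallest step in their list, and if that step stands for 1 tag, this peak held 306 tags in replicate 1 and 923 in replicate 2, against 16 and 21 tags in the weakest peak of each list. The single copy of TGTTTAC in it, at chr3:186109231-186109237, lay 38 bp and 20 bp from the peak centres. The printed sequence also holds 4 copies of CCAAT, of which 2 face each other in a single ATTGGCCAAT near its end. These boxes were searched only after the sequence had been read: within 100 bp of the centre, 4 or more copies were found in 0.184% of all replicate 1 peaks and in 0.48% of its promoter peaks. In replicate 2 the window around the centre held 3 copies, and 3 or more were in 0.718% of all peaks and in 2.26% of promoter peaks.

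ETV5 had a further shared peak inside the gene, in intron 5. It had a score of 9.81 and rank 1915 in replicate 1 and a score of 19.2 and rank 1744 in replicate 2, at 11158 and 11280 bp after the TSS, with 111 bp in common. This peak lacked TGTTTAC but held the CIC octamer TGAATGGA 2 times, on the - strand at chr3:186097924-186097931 and chr3:186097949-186097956, with starts 25 bp apart. Both copies lay within the stretch that the peaks of both replicates share. At least 2 copies within 100 bp of the centre were found in 2 of the 12471 replicate 1 peaks, of which this was 1. In replicate 2, where 3 of the 27281 peaks reached 2 copies, this peak was not among them, since only 1 of its copies lay within 100 bp of the centre. The last ETV5 peak, 13293 bp before the TSS and inside the DGKG gene, was found in replicate 2 only and was weak, with a score of 6.25 and rank 16543, although it held 1 TGTTTAC.

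At ETV1, the PEA3 gene with most peaks, FOXK2 was found at several separate sites, 5 in replicate 1 and 6 in replicate 2. Of these, 4 overlapped between replicates, a number reached by 2.11% of the genes with a peak in replicate 1. The strongest lay in intron 8, 66282 bp after the TSS by replicate 1, with a score of 31.1 and rank 77 in replicate 1 and a score of 60.5 and rank 82 in replicate 2. The promoter peak followed, with a score of 21.1 and rank 236, 51 bp before the TSS, in replicate 1, and a score of 38.5 and rank 284, 45 bp before the TSS, in replicate 2. Few genes had 2 peaks of this strength: 6 genes, ETV1 among them, had at least 2 peaks within the best 300 ranks in both lists.

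Neither of these strong ETV1 peaks held an exact TGTTTAC, while 196 of the 309 peaks of rank up to 300 in replicate 1 (63.4%) and 196 of 301 in replicate 2 (65.1%) did. Each held a single site that differs from it by 1 base, C7T in both cases (position 1 is the T that begins TGTTTAC), 9 bp from the replicate 1 centre in intron 8 and 23 bp from it at the promoter. Its first 6 letters read TAAACA on the other strand, which was common: 44.8% of all replicate 1 peaks and 75.1% of the 309 top peaks held it. Each also held 1 TGAATGGA, at chr7:13920211-13920218 in intron 8 and, on the - strand, at chr7:13991543-13991550 at the promoter. Of the 309 and 301 top peaks, only 5 in each list held this octamer within 100 bp of the centre, and both ETV1 peaks were among them.

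The other ETV1 peaks were weaker and mostly far from the gene. In intron 5, a peak at 5086 bp after the TSS (score 9.05, rank 2363) in replicate 1 overlapped one at 5204 bp (score 14.7, rank 3426) in replicate 2 by 115 bp. The replicate 2 peak contained another TGAATGGA, on the - strand at chr7:13981313-13981320, which lay just outside the bounds of the replicate 1 peak. A distal site beyond the 3′ end of the gene was also shared. It lay 344554 bp after the TSS with a score of 7.92 and rank 3303 in replicate 1, and 344584 bp after it with a score of 18.7 and rank 1870 in replicate 2, and it had 1 TGTTTAC within 100 bp of the replicate 1 centre and 2 within 100 bp of the replicate 2 centre. The remaining peaks, at 243624 bp in replicate 1 and at 358869 and 453905 bp in replicate 2, had no partner. All of these intergenic peaks lay inside a noncoding gene that GENCODE annotates there, and they were given to ETV1 only as the nearest TSS in the files.

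ETV4, the remaining PEA3 gene, had only weak peaks. Its only replicate 1 peak, 1090 bp after the TSS, had a score of 4.9 and rank 8397, and it overlapped an exon of the neighbor DHX8. In replicate 2, its peaks lay 28521 bp (score 6.25, rank 16543) and 42789 bp (score 4.02, rank 25156) before the TSS, both in LTR repeat elements and inside the span of DHX8. GENCODE places the stronger of them inside the span of ETV4 as well. No ETV4 peak of 1 replicate overlapped a peak of the other. The strongest ETV4 peak was thus at percentiles of 29.0 and 37.65, against 99.4 and 99.7 for ETV1. This difference was not tested.

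**Figure D2:**
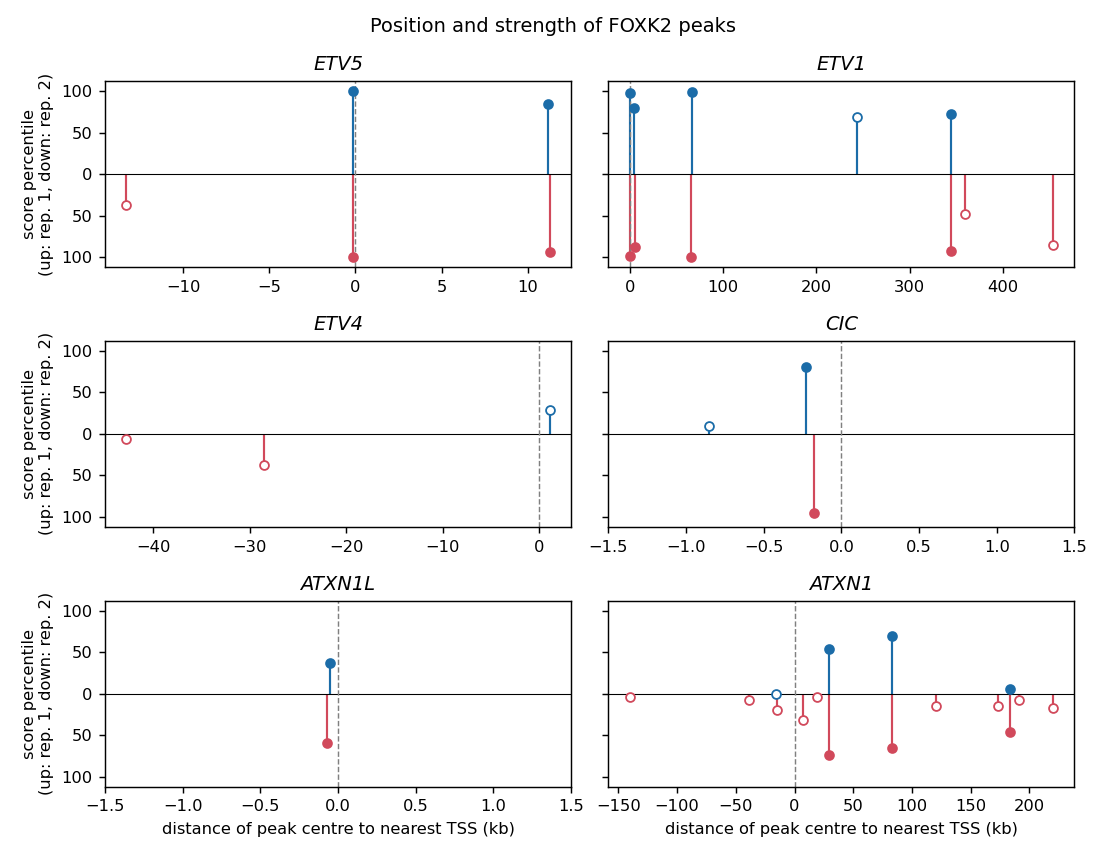
Distance of each peak centre to the nearest TSS in kb (x axis, which differs between panels, negative before the start) and its score percentile (y axis), for the 6 genes. Bars upward in blue are replicate 1, bars downward in red are replicate 2, and filled points overlap a peak of the other replicate. The tallest paired bars of ETV5 and ETV1 sit at the TSS and, for ETV1, also in intron 8, a further paired ETV1 bar stands beyond the gene at 344554 bp in replicate 1, and ATXN1 has 12 bars in replicate 2, of which 3 are filled.

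Among all 28 ETS factor genes, ETV5 and ETV1 came first and second by their strongest peak in both replicates. The 25 ETS genes outside the PEA3 family, listed with the values already known, included 11 with a peak in both lists, all 11 with a shared one, beside 28.6% and 25.5% of all protein-coding genes. The third was ELF2, whose best peak, in an intron, had ranks of 187 and 159. ERF, an ETS repressor whose gene lies beside CIC, had only a weak replicate 2 peak (rank 20303), and 7 ETS genes, among them ETV3 and SPI1, had no peak in either list. The share without a peak in either list was 45.7% among all protein-coding genes. ETV4 was in position 14 of the 15 ETS genes with a peak in replicate 1 and in position 16 of 20 in replicate 2.

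**Figure D3:**
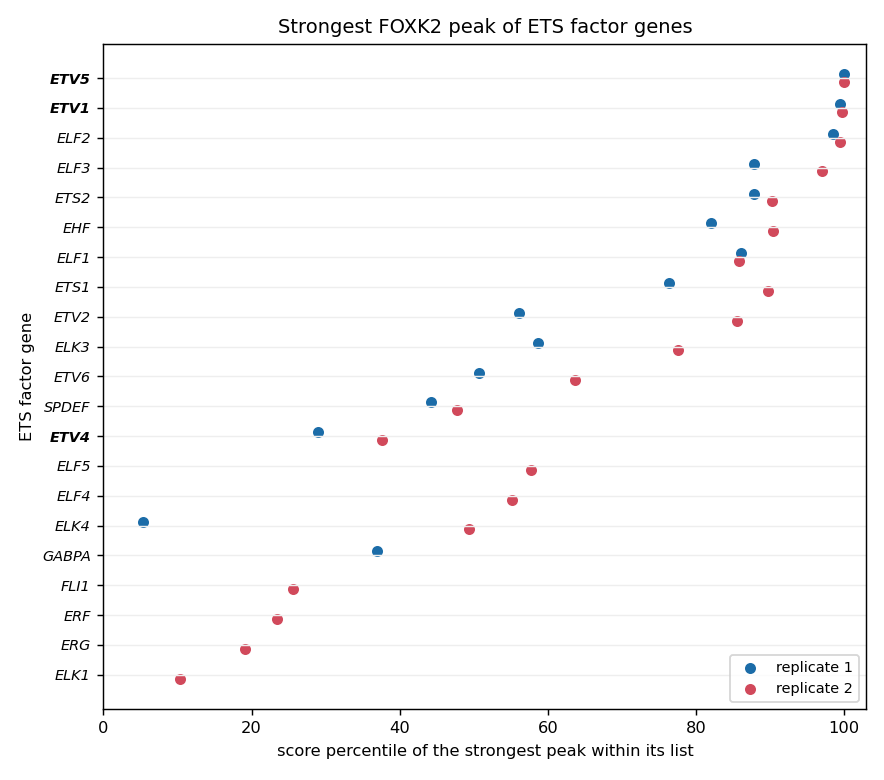
Score percentile of the strongest FOXK2 peak of each ETS factor gene with at least 1 peak, in replicate 1 (blue) and replicate 2 (red). PEA3 genes are in bold, and genes are ordered by the mean of both values, a missing value counting as 0. ETV5 and ETV1 are above all others, and ETV4 stands at 29.0 and 37.65.

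CIC, the repressor of the circuit, has a long and a short isoform that start from separate promoters. FOXK2 was found in both replicates at the upstream promoter. The peak had a score of 9.24 and rank 2246, 230 bp before the TSS, in replicate 1 and a score of 21.4 and rank 1287, 174 bp before the TSS, in replicate 2. These ranks correspond to percentiles of 81.1 and 95.2, and the peaks, at chr19:42268202-42268412 and chr19:42268235-42268491, had 177 bp in common. The internal promoter had a weak peak in replicate 1 only, 852 bp before its TSS, with a score of 4.15 and rank 10645. No CIC peak held TGTTTAC or a CIC octamer within 100 bp of its centre, but the upstream peak had 3 copies of CCAAT in each replicate. The internal peak had 1 copy. In each replicate, the ETV1 promoter peak had 2 copies and the ATXN1L promoter peak had 0. Among promoter peaks, at least 3 copies were in 2.07% in replicate 1 and in 2.26% in replicate 2, against 0.866% and 0.718% of all peaks. A TGAATGGA does lie in the RefSeq promoter at chr19:42269002-42269301, downstream of both upstream peaks.

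The ataxin genes had weaker peaks. ATXN1L had a single peak, at its promoter, in each replicate, with a score of 5.28 and rank 7370, 53 bp before the TSS, in replicate 1 and a score of 8.33 and rank 10878, 69 bp before it, in replicate 2. The whole replicate 1 peak was inside that of replicate 2, and neither held TGTTTAC. By percentile, 36.9 and 58.9, ATXN1L stood in the lower part of the replicate 1 list and near the middle of the replicate 2 list. The span that GENCODE gives ATXN1L also covers a shared promoter peak at ranks 3872 and 9640, which the files assign to the neighbor AP1G1.

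ATXN1, named for its polyglutamine expansion in spinocerebellar ataxia, had many weak peaks in and upstream of its large gene. There were 4 in replicate 1, of which 1 was intergenic, 15720 bp before the TSS, and 12 in replicate 2, of which 3 were intergenic, up to 140507 bp before the TSS. As many peaks were found at 357 of the 8359 genes in the replicate 1 list (4.27%) and at 29 of the 13887 in the replicate 2 list (0.209%). None lay at a promoter. The shared peaks were 3, all intronic. That in intron 3, 82998 bp after the TSS by replicate 1, had a score of 7.55 and rank 3663 in replicate 1 and a score of 9.22 and rank 9092 in replicate 2. Another in intron 3, at 29186 bp, had scores of 6.23 (rank 5476) and 10.6 (rank 7022), and that in intron 5 had scores of 3.96 (rank 11262) and 6.99 (rank 14263). The other 9 peaks of replicate 2 had ranks from 18039 to 25743, all in the weaker part of that list, and the remaining peak of replicate 1, at rank 12378, was close to the end of its own. GENCODE gives ATXN1 a span of 462380 bp, and further peaks within it, 2 in replicate 1 and 4 in replicate 2, were assigned by the files to the neighbor GMPR, with none of them shared.

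The intron 3 peak at 82998 bp is shown because it is the strongest ATXN1 peak of replicate 1 and the only shared one with an exact heptamer. It lies at chr6:16677028-16677238 within an L2 repeat, and capitals mark the heptamer, which lies on the other strand here and reads GTAAACA, and the AP-1-like site TGANTCA. The copy that reads TGAGTCA has the usual AP-1 form.
ATXN1 intron 3: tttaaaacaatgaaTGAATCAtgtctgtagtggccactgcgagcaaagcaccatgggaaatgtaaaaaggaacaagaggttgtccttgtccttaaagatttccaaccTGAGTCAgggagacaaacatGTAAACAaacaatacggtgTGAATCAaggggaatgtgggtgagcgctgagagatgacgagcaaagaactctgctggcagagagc

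Its heptamer, at chr6:16677155-16677161, lay 25 bp from the replicate 1 centre and 5 bp from the replicate 2 centre. The TGAGTCA copy lay 5 bp and 15 bp from these centres, with 13 bases between it and the heptamer. An octamer TGAATGAA at chr6:16677038-16677045 overlaps the TGAATCA near the beginning of the sequence, so these 2 matches share letters. At least 1 TGANTCA was in 20.8% of all replicate 1 peaks and 21.0% of replicate 2 peaks.

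With the deposited gene names and at any distance, the share of peaks of the 6 genes with the exact forkhead heptamer was close to that of the lists. The share with the CIC octamer TGAATGGA was above that of the lists. TGTTTAC, on either strand within 100 bp of the centre, was in 4 of the 15 peaks in replicate 1, against 30.5% of all peaks, and in 8 of the 25 in replicate 2, against 28.2%. TGAATGGA was in 3 of the 15 in replicate 1, against 0.93% of all peaks, and in 5 of the 25 in replicate 2, against 0.902%. All 3 of the former were at ETV1 and ETV5, as were 4 of the 5 latter, the other being a weak ATXN1 peak of replicate 2 at rank 24480. Each of those 3 replicate 1 peaks overlapped 1 of these replicate 2 peaks, so both counts largely cover the same sites. Either octamer, TGAATGAA or TGAATGGA, was in 4 of the 15 and 6 of the 25 peaks, against 2.37% and 2.42% of all peaks. With peaks assigned by gene span, TGTTTAC was in 2 of 15 in replicate 1 and 5 of 22 in replicate 2. Within 10000 bp of the TSS it was in 1 of 7 and 1 of 6. The shares of all peaks by gene span or within 10000 bp were not computed, so these counts cannot be set against the lists. Among all promoter peaks, TGTTTAC was in 14.4% in replicate 1 and 10.9% in replicate 2. The ETS site CCGGAAGT was in 0 of the 15 and 0 of the 25 peaks of the 6 genes, and in 2.73% and 2.22% of the lists. These are matches of letters in the reference genome, and whether CIC was bound at any of them was not measured. RefSeq promoters (GRCh38.p14, from 250 bases before to 50 after each start) were available for ATXN1, ATXN1L, CIC and ETV1. No TGTTTAC was found in these, against 3.42% of 35116 promoters. Those of ETV4 and ETV5 were not available, and the ETV5 promoter peak does hold TGTTTAC. TGAATGGA was in 1.03% of the 35116 promoters, including the ETV1 promoter described above.

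**Figure D4:**
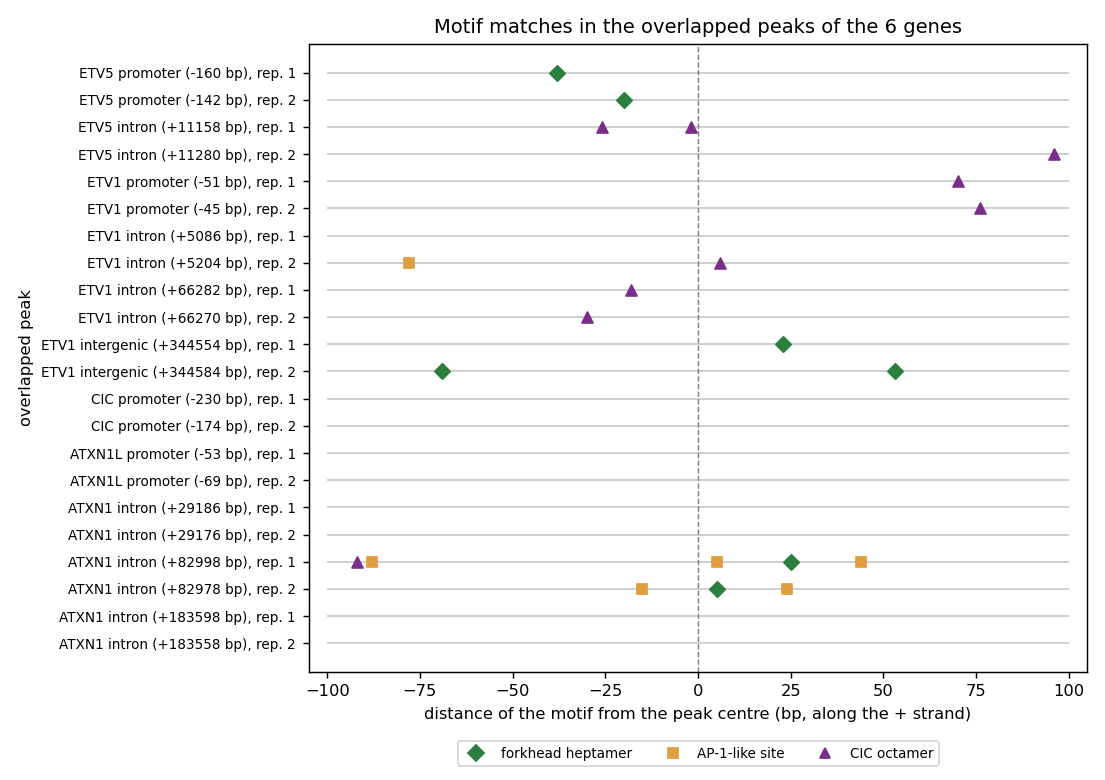
Position of motif matches within 100 bp of the centre of each shared peak of the 6 genes, in bp along the + strand, with 1 line per peak and replicate labelled with its distance to the TSS. Diamonds are the forkhead heptamer, squares the AP-1-like site and triangles either CIC octamer. Triangles stand at 3 ETV1 sites, 1 ETV5 site and, near the edge in replicate 1, 1 ATXN1 site, diamonds at the ETV5 promoter, the distal ETV1 site and 1 ATXN1 site, and the CIC and ATXN1L rows are empty.

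The wider ERK-CIC circuit was described with a list of 44 genes: 12 regulators of CIC and the PEA3 factors, 12 binding partners of ATXN1 and CIC, and 20 CIC targets and ERK feedback genes. A peak in both replicates was found at 24 of the 44, each with a shared peak, against 28.6% and 25.5% of all protein-coding genes. Within 10000 bp of the TSS the number was 15, against 16.9% of protein-coding genes, and with promoter peaks alone it was 9, against 9.29%. By role, the 24 genes at any distance were 7 of the 12 regulators, 6 of the 12 partners and 11 of the 20 targets and feedback genes. Both lists placed the best peak of 5 of the 44 genes in their upper 10%, against 4.26% of protein-coding genes. RPS6KA5 (MSK1, a kinase downstream of ERK) had a promoter peak at ranks 498 and 302, and RORA, a nuclear receptor that binds ATXN1, had one at ranks 879 and 1270. PHLDA1, an ERK-responsive gene, had a distal peak at ranks 338 and 630. The ERK phosphatase gene DUSP6 had a peak in its 5′ UTR at ranks 879 and 1332, and FGFR1, a growth factor receptor, an intronic one at ranks 1014 and 1516.

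None of these genes reached the ranks of ETV5 and ETV1. Of the other feedback inhibitors, DUSP5 had 5 peaks in each list, all 5 of replicate 1 shared (best ranks 1751 and 1047), SPRED1 had best ranks of 1439 and 985, and SPRY2 had a promoter peak at ranks 1682 and 1829. SPRY4 had a promoter peak in replicate 2 only, at rank 8616. COP1 and DET1, parts of the ubiquitin ligase that degrades PEA3 proteins, had promoter peaks in both lists, with percentiles from 24.4 to 55.1. No peak was assigned in either list to 7 of the 44: MAPK3 (ERK1), RPS6KA1, YWHAB, HDAC3, SPRED3, CCND2 and VGF. Of all protein-coding genes, 45.7% had none.

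**Figure D5:**
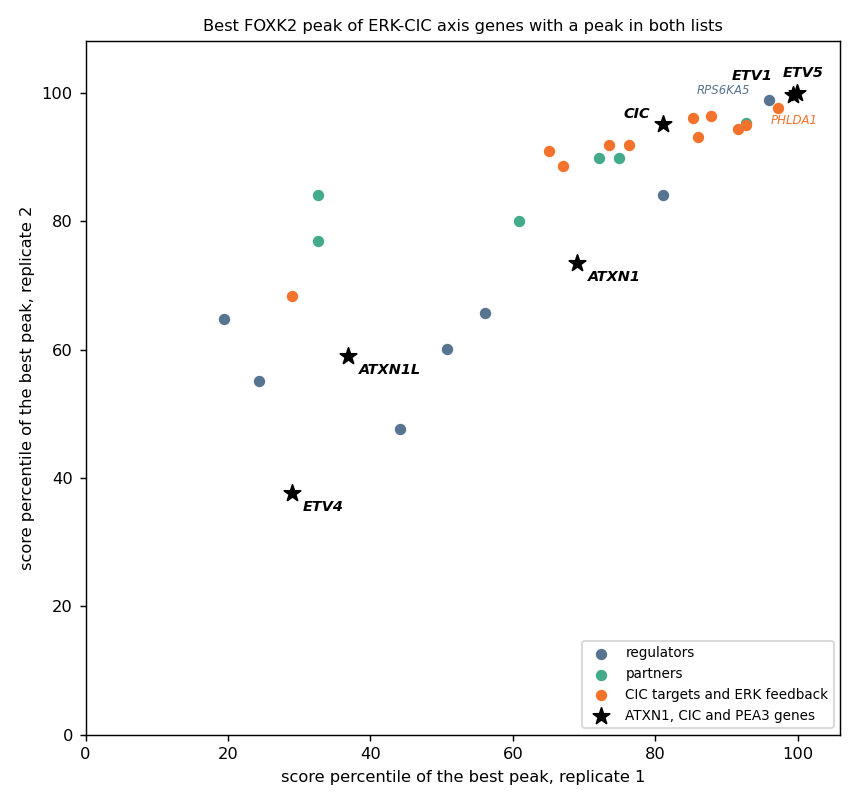
Score percentile of the best FOXK2 peak in replicate 1 (x axis) and replicate 2 (y axis) for the genes of the ERK-CIC list with a peak in both lists, colored by role, with the 6 genes as stars. ETV5 and ETV1 are in the upper right corner, followed by RPS6KA5 and PHLDA1, and ETV4 is the lowest star.

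Genes with a similar strength of binding were sought among genes with the same number of replicate 1 peaks, by the distance between the pairs of best-peak percentiles in both libraries. Nearest to ETV5 were HIBADH, CCNE1 and TFAP4, at most 0.0326 percentile points away. Nearest to ETV1 were SLC8A1, ATP8B4 and LINC01817, at most 0.56 points away. For CIC they were SNX9, CFDP1 and MIR4499, at most 0.759 points away, and for ATXN1 they were CPS1-IT1, ZBTB38 and TNRC17, from 2.18 to 6.16 points away. ATXN1L was nearest to HR, CPA3 and LOC284632 and ETV4 to AADACP1, TMEM120B and DALRD3, each among 5108 candidates with 1 replicate 1 peak, where such matches are common.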

How the data were processed

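The peak lists of 2 FOXK2 ChIP-seq replicates were used. The authors aligned single-end reads (Bowtie2 2.2.6, genome build hg38) and found peaks by HOMER 4.10, giving 1 annotated list per replicate, and whether input was used in the peak calling itself is not given in the sources used here. The authors also compared peaks with input by DESeq2, and none of those values were used. The deposited peak score is scaled to each library and was ranked only within its list. The focus ratio, a deposited fraction of tags on the expected side of the centre, and the deposited distance to the TSS were used as given.

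Peaks were taken for the 6 genes by the deposited gene name and counted as shared at an overlap of at least 1 bp. Both strands were searched for motifs up to 100 bp from the centre. Every TGTTTAC also matches TGTTTNC and TAAACA. Gene spans and exons came from GENCODE release 44, and gene counts and promoters from RefSeq, with older symbols matched through its synonyms. The input libraries were not analysed here, so no test was run. Shares over whole lists had Wilson 95% half-widths of at most 0.808 percentage points, for counting error only. The weakest peaks held 16 and 21 score steps, so weak peaks have few tags if 1 step stands for 1 tag.

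The members and lists were chosen with earlier results of these data known. Named genes were the 6 members, list genes in the upper 10% of both lists or with no peak, and the 3 nearest genes by best-peak percentiles, and a few others were named after their values were seen. Protein sequences were not analysed here. Simulated data with known answers were used as a check: 0 errors were made in 6000 peaks for the overlap and 0 in 2000 windows for the motif. The simulated windows held only C and G around the planted TGTTTAC, and simulated pairs overlapped widely. Chance matches and overlaps near 1 bp were therefore not checked. The ETS list, the CCAAT search and the octamer alternatives were chosen after seeing the data. Python 3.11.15, numpy 2.4.6, pandas 2.3.3, pysam 0.24.0, matplotlib 3.10.9 and samtools 1.23.1 were used.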

Additional observations from a re-analysis of the deposited data

How the results depend on the processing

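No paired analysis was possible because no test was run: replicate numbers are shared only with the inputs, which were not analysed here. Of 89 alternative values of the counts over the 6 genes or the ERK-CIC list, 68 stayed within 1.5 times the value reported and 21 did not. Of 48 values of shared peaks of single genes, 7 moved. The CIC octamer alternatives were added after seeing the data.

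Replicate 2 had 11 peaks of the 6 genes, 3 with TGTTTAC, both in the higher-scoring part of each list and with lists of equal length, and 16 peaks, 4 with TGTTTAC, within 100000 bp of the TSS. Within 10000 bp of the TSS there were 7 peaks in replicate 1 and 6 in replicate 2, of which 5 and 5 overlapped, 1 and 1 held TGTTTAC and 1 and 2 held TGAATGGA. The gene span in place of the nearest TSS left TGTTTAC in 2 of 15 peaks of replicate 1 and in 5 of 22 of replicate 2. With TAAACA in place of TGTTTAC, 7 of the 15 replicate 1 peaks matched, against 44.8% of the list. TGAATGGA was in 3 replicate 2 peaks within 50 bp of the centre and in 5 replicate 1 peaks within 500 bp. No shares of all peaks were computed for the higher-scoring part, lists of equal length, either distance limit or the gene span. The same was true of the 50 and 500 bp windows, so none of these peak counts can be set against the lists. Of the 44 genes of the ERK-CIC list, 15 had a peak in both replicates within 10000 bp of the TSS, against 16.9% of protein-coding genes. With promoter peaks only, 9 had one, against 9.29%. With 1 replicate left out, the number with a peak ranged from 27 to 34. The share of all protein-coding genes with a peak in a single list was not computed. Leaving out a replicate could not change the number of genes with a peak (6), since all had one in each list. The overlap counts could not be computed without a replicate. Of the 6 genes, those found in both lists numbered 4 in the higher-scoring part, 5 with equal length and 4 within 10000 bp, and genes with a shared peak numbered 4 in the higher-scoring part, within 10000 bp and at 90% overlap. Requiring 90% overlap removed the shared CIC peak, 1 of the 2 shared ETV5 peaks and 1 of the 4 of ETV1. The only shared ATXN1L peak was lost in the higher-scoring part, while the gene span gave ATXN1L 2. Within 10000 bp, ATXN1 kept 0 of 3 shared peaks, ETV1 2 of 4 and ETV5 1 of 2. Settings that keep fewer peaks lower the counts by construction. For the other changes, the cause was not tested.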
